A study of Homo sapiens with 60 samples.

Results

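Lysosome, V-ATPase and autophagy genes were followed in SW1783, an established human astrocytoma line (ATCC HTB-13), after exposure to plant extracts. The members were 27 listed genes together with each gene whose symbol starts with ATP6V0, ATP6V1 or ATP6AP, pseudogenes left out, which gave 58 of the 60675 genes in the deposited count table. By role they were 3 transcription factors, 4 membrane proteins, 2 channels or transporters, 12 hydrolases and their activators, 6 autophagy genes, 13 V1 subunits, 9 V0 subunits and 2 accessory subunits of the V-ATPase, and 7 other loci that share the symbol prefix. The other loci were antisense or divergent transcripts, a readthrough transcript, a neighbouring gene and an accessory-like gene.

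The lysosome is the acidic compartment in which hydrolases break down proteins, lipids and glycans delivered by endocytosis and autophagy. Its acid is made by the V-ATPase, a rotary proton pump with a cytosolic V1 sector that splits ATP and a membrane V0 sector that carries protons. Many lysosomal and autophagy genes are targets of the related factors TFEB, TFE3 and MITF, which are held in the cytosol when mTORC1 is active at the lysosome and are controlled largely by phosphorylation and location, so that their RNA levels need not follow their activity.

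Gene expression was measured by paired-end RNA sequencing after 24 h. The cells grew in L-15 (Leibovitz's) medium and received DMSO as vehicle (0.1% in the sample labels, while the series text gives 2%) or ethanol extracts of 6 herbs and 2 formulas at a high, a medium and a low dose. For Yijung-tang, Banhasasim-tang, Aconiti Lateralis Radix Preparata, Citri Unshius Pericarpium, Zizyphi Fructus and Cimicifugae Rhizoma the doses were 500, 100 and 20 µg/mL. Bupleuri Radix was given at 210, 42 or 8.4 µg/mL, and Coptidis Rhizoma at 14, 2.8 or 0.56 µg/mL. These 2 high doses were set at the inhibitory concentration IC20, per the series text, which does not name what was inhibited. There were 3 libraries of the vehicle and of each dose of Aconiti, Bupleuri, Cimicifugae and Citri, 2 per dose of Yijung-tang, Coptidis and Zizyphi, and 1 per dose of Banhasasim-tang. In 2 groups replicate 1 stood apart from all other libraries and was left out, which left 2 of high-dose Aconiti and 1 of low-dose Yijung-tang. Whether replicates came from separate cultures is not stated, so p-values measure only how far these samples spread, and that spread may be technical.

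The 58 libraries used held 15996157 to 30990264 counts. Of the astrocyte markers, VIM (4440 ± 197 CPM, counts scaled to library size, mean ± SD, n = 3) and CD44 (2730 ± 8.97) were high in the vehicle and SOX9 (73.3 ± 2.84) and SLC1A3 (33.5 ± 2.01) were present, but GFAP, AQP4, ALDH1L1 and S100B, which define mature astrocytes, were at 0.19 CPM or less. The list of 10 astrocyte or glial markers also held NES (10.2 CPM) and SLC1A2 (0.334 CPM), and 7 of the 10 were tested. At high-dose Coptidis 6 of the 7 were lower and VIM was higher than at the low dose, while 4 were lower with Bupleuri. By the test given below, 32.4% of all genes were called lower with Coptidis and 18.6% with Bupleuri. Library names carry a set number, 14 for both formulas, 13 for Aconiti and Bupleuri, 12 for Cimicifugae and Citri and 11 for Zizyphi and Coptidis, that no vehicle library carries, so set and treatment cannot be told apart against the vehicle. The results therefore lead with the high dose against the low dose, which share a set. A gene is called when its edgeR quasi-likelihood test gives an adjusted p under 0.05 over all 17680 genes tested. Effects are log2 fold changes ± SE.

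Of the 58 members, 57 were tested and ATG9B, an autophagy membrane protein, was too low (at most 0.422 CPM). ATP6V1G3, ATP6V0A4 and ATP6V0D2 had a median under 0.412 CPM, the level of 10 counts in a library of median depth, and ATP6V0D2 had its highest group means, 6.45 and 6.04 CPM, at the high doses of Coptidis and Bupleuri. Such genes can pass the filter through the groups where they are high. With Coptidis, 40 of the 57 tested members were higher and 13 lower at the high dose, where 33.2% of all genes tested were called higher and 32.4% lower (65.6% in all). The median log2 difference was 0.43 over these members and -0.02 over all genes. With Bupleuri, 35 were higher and 6 lower (20.6% and 18.6% of all genes, 39.2% in all), with medians of 0.36 and 0.00. Far fewer members were called with the other extracts. Yijung-tang, compared as high against medium because 1 low-dose library was left, gave 14 higher and 1 lower (4.11% and 5.05% of all genes, 9.16% in all). Aconiti gave 11 higher and 3 lower (4.28% and 5.25%, 9.53% in all), Zizyphi 1 and 6 (3.12% and 4.28%), Citri 1 and 4 (6.44% and 7.34%) and Cimicifugae 3 and 1 (4.88% and 5.81%). With 1 library left out, the Aconiti count was 4 without replicate 3 of the high dose, 8 without its replicate 2 and 9 without replicate 3 of the low dose. The Yijung-tang count was 8 without replicate 1 of the medium dose. The Zizyphi count was 3 without replicate 3 of the high dose and 4 without replicate 2 or replicate 3 of the low dose. For Zizyphi, Citri and Cimicifugae the share of members called in either direction was 12.3%, 8.77% and 7.02%, beside 7.4%, 13.8% and 10.7% of all genes. With the 2 divergent libraries kept, the counts called in either direction were 38 for Coptidis, 30 for Bupleuri, 15 for Aconiti, 2 for Yijung-tang, 1 for Zizyphi, 2 for Citri and 0 for Cimicifugae. The share of all genes called in that fit is not given here, so a loss of calls particular to the members cannot be read from these counts.

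**Figure D1:**
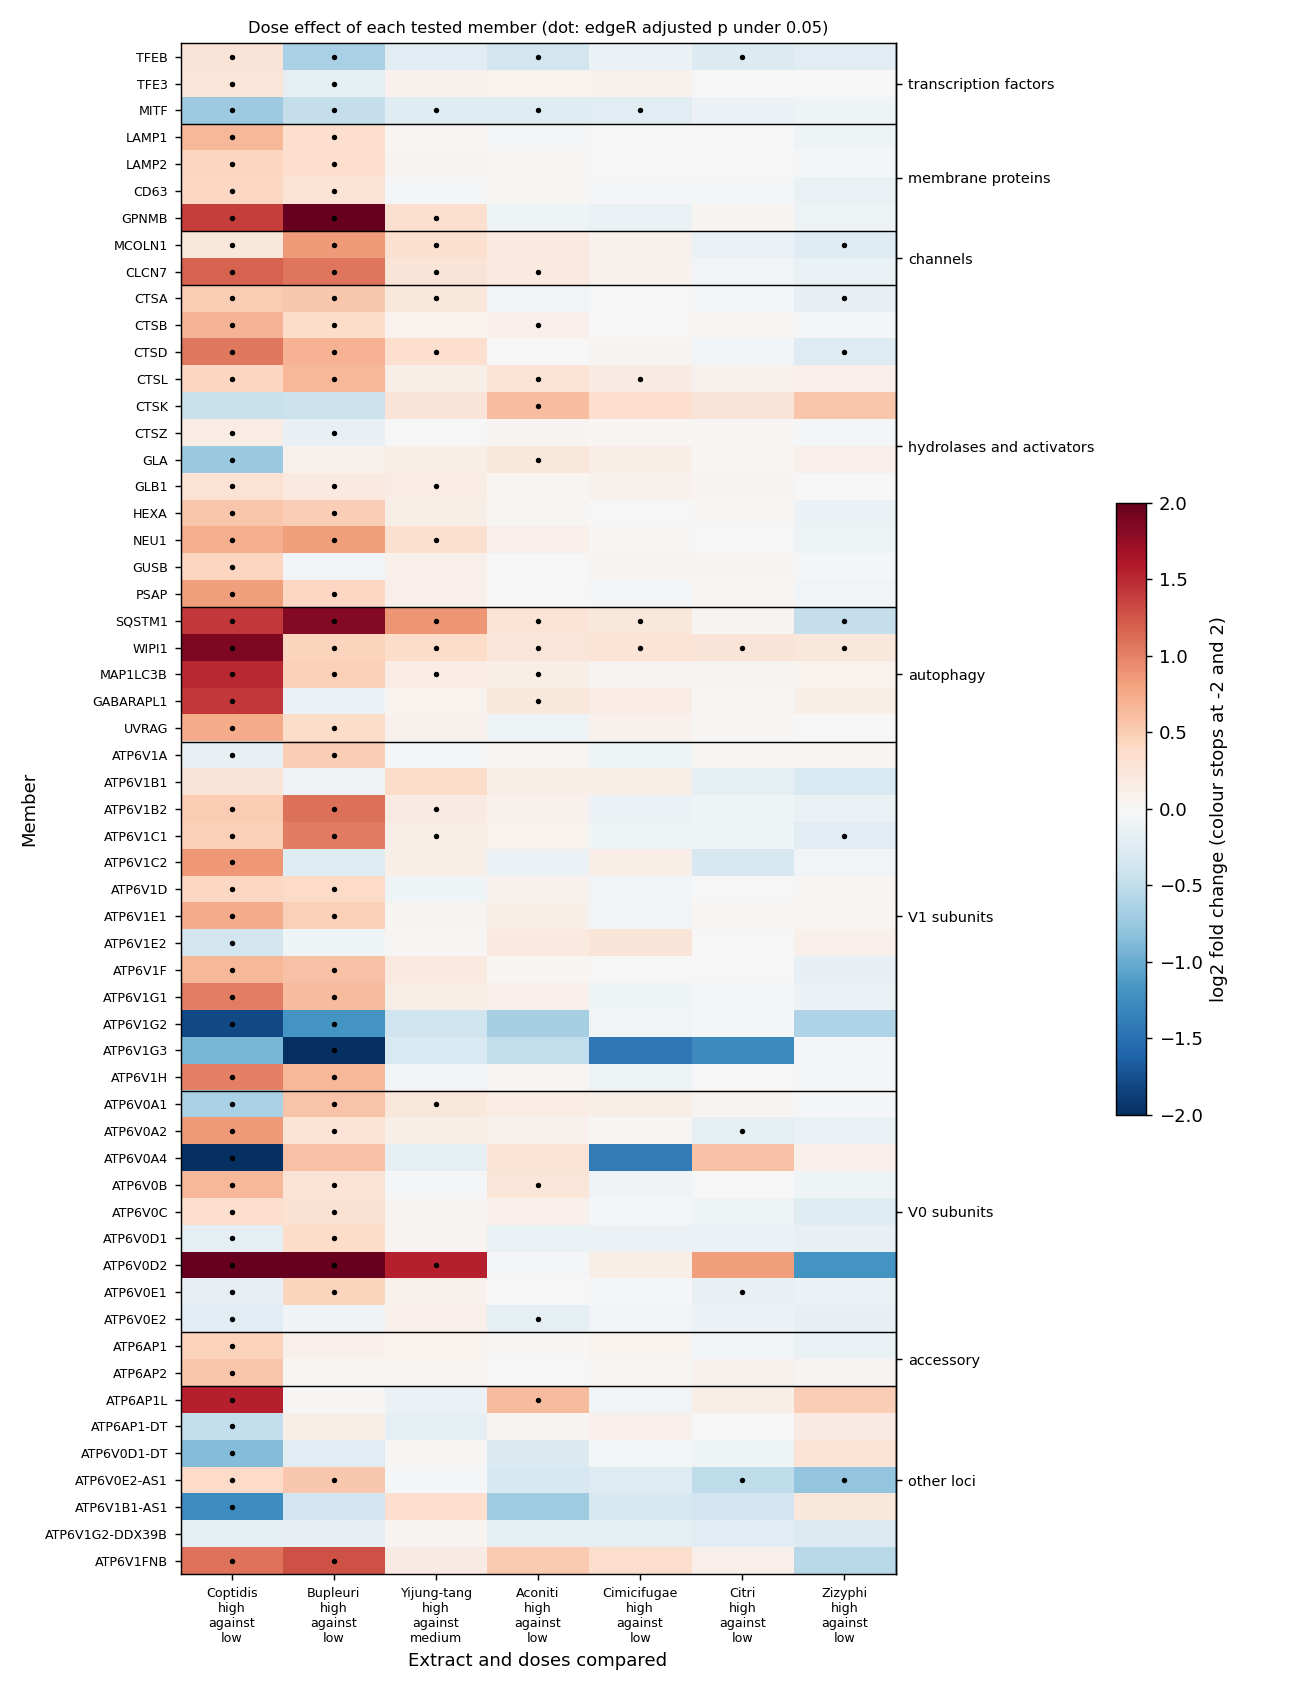
Log2 fold change of each of the 57 tested members (rows, grouped by role) between the high and the low dose of each extract (columns; Yijung-tang high against medium), in colour, with a dot where the edgeR adjusted p was under 0.05. The Coptidis and Bupleuri columns hold 53 and 41 dots, the other 5 columns 4 to 15.

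The 3 transcription factors did not move together. TFEB (ENSG00000112561, chromosome 6, 41683978 to 41736259, minus strand of GRCh38) stood at 17.1, 16.2 and 18.8 CPM with low-dose Bupleuri and at 10.7, 11.9 and 10.6 with the high dose. The groups did not overlap, and TFEB fell (log2 -0.65 ± 0.069, edgeR adjusted p = 1.33e-10). With Coptidis it stood at 15.7 and 15.3 CPM at the low dose and 19.6 and 17.4 at the high dose, and rose by 0.26 ± 0.083 (edgeR adjusted p = 0.00656). That rise was lost without replicate 2 of the high dose (0.16, edgeR adjusted p = 0.187) and without replicate 3 of the low dose (0.23, 0.0563). TFEB was also lower with high-dose Aconiti, at 12.7 and 12.6 CPM against 16.5, 16.1 and 16.2 at the low dose (-0.36 ± 0.077), and with Citri, at 13.1, 14.4 and 13.9 against 16.4, 15.8 and 17.9 CPM (-0.28 ± 0.067).

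TFE3, the X-linked relative of TFEB, had values of 150, 147 and 146 CPM with low-dose Bupleuri and 136, 128 and 125 with the high dose, without overlap (log2 -0.18 ± 0.040). With Coptidis it stood at 142 and 140 CPM at the low dose and 165 and 167 at the high dose, a rise of 0.24 ± 0.049. MITF, best known as the regulator of pigment cells, fell with both. It went from 34.3 and 35.1 to 21.3 and 20.5 CPM with Coptidis (-0.73 ± 0.077, edgeR adjusted p = 2.49e-11) and from 34.9, 32.2 and 31.5 to 24.4, 22.8 and 23.9 CPM with Bupleuri (-0.47 ± 0.059, edgeR adjusted p = 7.88e-09). MITF was also lower with Yijung-tang (-0.25 ± 0.071), Aconiti (-0.25 ± 0.064), where it went from 36.3, 33.5 and 33.2 to 29.2 and 28.4 CPM, and Cimicifugae (-0.22 ± 0.059), where it went from 34.1, 31.6 and 35.4 to 28.6, 29.5 and 28.9 CPM. The call ended in Aconiti without replicate 3 of the high dose (edgeR adjusted p = 0.108), in Cimicifugae without replicate 3 of the low dose (0.0611), and in Yijung-tang without replicate 1 of the medium (0.365) or replicate 2 of the high dose (0.206).

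TFEB and its relatives bind short DNA elements, so the start regions of the members were searched for them. RefSeq windows of 300 bases, 250 before to 50 after a start on GRCh38.p14, were found for 43 of the 58 members, several with more than 1 start. The E-box CACGTG, searched on both strands, was in a window of 12 of these 43 genes (27.9%), and in 8.77% of all 27305 genes with a window (10.9% of the protein-coding ones). The longer form TCACGTG, which contains the E-box, was in 11 (25.6%, and 4.49% of all genes), and TCATGTG, the M-box core known from MITF targets, was in 4 (9.3%, and 3.59% of all genes). The listed members include known lysosomal targets of these factors, so these shares describe the list and test nothing. The E-box genes were LAMP1 with 6 copies, MCOLN1, CLCN7, CTSA and ATP6V0B with 2 each, and CD63, CTSD, NEU1, ATP6V1G1, ATP6V0D1, ATP6V0E2 and the divergent transcript ATP6V0D1-DT. The windows of ATP6V0D1 and ATP6V0D1-DT overlap and hold the same E-box, which is counted for both genes here and in the counts below.

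The windows below are a selection and no even sample of the members. The E-box genes ATP6V0D1, ATP6V0E2 and ATP6V0D1-DT were lower with Coptidis (-0.19, -0.22 and -0.87) and are not printed. Of the 30 tested members with a window and no E-box, 20 were higher with Coptidis (33.2% of all genes tested). The printed windows belong to members whose dose effects are described next, 4 with an E-box, GPNMB with 2 M-box cores, and GLA and ATP6V0A1 with neither. They are written 5′ to 3′ on the gene's strand of GRCh38.p14, and capitals mark TCACGTG or TCATGTG on either strand, with the E-box inside the first.
MCOLN1, chr19:7522374-7522673, plus strand: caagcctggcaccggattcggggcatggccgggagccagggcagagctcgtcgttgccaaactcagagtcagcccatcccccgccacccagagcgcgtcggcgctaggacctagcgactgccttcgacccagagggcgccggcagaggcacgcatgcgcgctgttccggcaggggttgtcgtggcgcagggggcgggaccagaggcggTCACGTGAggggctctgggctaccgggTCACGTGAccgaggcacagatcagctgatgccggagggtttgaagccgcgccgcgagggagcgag
CLCN7, chr16:1474979-1475278, minus strand: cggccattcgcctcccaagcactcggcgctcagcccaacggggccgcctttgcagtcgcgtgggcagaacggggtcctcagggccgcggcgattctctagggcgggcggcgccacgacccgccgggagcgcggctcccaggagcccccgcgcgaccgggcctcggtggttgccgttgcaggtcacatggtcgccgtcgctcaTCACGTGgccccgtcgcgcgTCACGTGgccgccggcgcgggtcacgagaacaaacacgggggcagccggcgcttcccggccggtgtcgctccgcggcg
NEU1, chr6:31862772-31863071, minus strand: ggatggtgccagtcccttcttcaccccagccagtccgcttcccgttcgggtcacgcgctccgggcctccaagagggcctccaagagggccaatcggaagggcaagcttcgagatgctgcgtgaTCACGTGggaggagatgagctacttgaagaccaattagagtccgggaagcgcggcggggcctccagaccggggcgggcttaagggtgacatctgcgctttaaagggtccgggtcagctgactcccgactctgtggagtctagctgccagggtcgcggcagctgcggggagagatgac
ATP6V1G1, chr9:114587519-114587818, plus strand: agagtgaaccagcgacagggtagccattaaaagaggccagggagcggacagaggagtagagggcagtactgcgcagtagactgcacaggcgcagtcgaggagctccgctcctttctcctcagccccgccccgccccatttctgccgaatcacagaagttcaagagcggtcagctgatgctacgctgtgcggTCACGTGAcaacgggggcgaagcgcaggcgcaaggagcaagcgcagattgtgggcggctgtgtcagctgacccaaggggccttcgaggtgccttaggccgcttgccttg
GPNMB, chr7:23246525-23246824, plus strand: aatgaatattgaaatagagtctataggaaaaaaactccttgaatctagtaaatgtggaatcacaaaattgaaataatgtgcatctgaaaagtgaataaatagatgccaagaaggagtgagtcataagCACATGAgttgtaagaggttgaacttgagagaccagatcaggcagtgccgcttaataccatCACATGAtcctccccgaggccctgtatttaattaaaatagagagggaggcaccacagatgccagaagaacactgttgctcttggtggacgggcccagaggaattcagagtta
GLA, chrX:101407876-101408175, minus strand: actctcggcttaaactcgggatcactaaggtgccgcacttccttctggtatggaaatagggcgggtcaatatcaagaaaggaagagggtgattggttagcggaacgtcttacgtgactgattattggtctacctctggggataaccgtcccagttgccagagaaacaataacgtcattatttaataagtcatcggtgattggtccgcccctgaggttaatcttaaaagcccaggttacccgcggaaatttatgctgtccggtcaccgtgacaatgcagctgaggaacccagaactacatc
ATP6V0A1, chr17:42458628-42458927, plus strand: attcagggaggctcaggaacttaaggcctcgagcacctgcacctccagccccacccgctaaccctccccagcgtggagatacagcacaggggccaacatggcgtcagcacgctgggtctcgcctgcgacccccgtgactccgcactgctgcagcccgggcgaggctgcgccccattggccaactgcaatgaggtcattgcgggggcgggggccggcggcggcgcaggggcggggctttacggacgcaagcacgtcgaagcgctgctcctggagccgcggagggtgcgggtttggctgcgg

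Of the 12 members with an E-box in a window, 10 were called higher with Bupleuri and none lower, with a median of 0.45, and of the 30 tested members with a window and no E-box, 13 were higher and 6 lower, with a median of 0.11. With Coptidis the counts were 9 higher and 3 lower of 12 (median 0.58) and 20 and 7 of 30 (median 0.37). Over all genes tested, 20.6% were called higher and 18.6% lower with Bupleuri, and 33.2% and 32.4% with Coptidis. A matching sequence says nothing of binding, and these groups of genes were not tested against each other.

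GPNMB, a membrane glycoprotein known as an MITF target, changed most among the membrane proteins. It stood at 23.2, 22.2 and 22.8 CPM with low-dose Bupleuri, 29.4, 26.8 and 26.3 at the medium dose and 99.0, 104.8 and 101.5 at the high dose. The high-dose libraries stood clear of the other doses (4.49-fold, log2 2.17 ± 0.051, edgeR adjusted p = 6.63e-33). With Coptidis it went from 27.2 and 26.1 to 67.8 and 71.8 CPM (1.39 ± 0.064). LAMP1 and LAMP2, the major proteins of the lysosomal membrane, and the tetraspanin CD63 rose by less, 0.41 to 0.66 with Coptidis and 0.27 to 0.34 with Bupleuri.

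CLCN7, the chloride-proton exchanger of the lysosome, rose with both extracts by about the same amount. It went from 80.7 and 85.1 to 188 and 187 CPM with Coptidis (1.18 ± 0.045) and from 86.2, 90.8 and 89.9 to 184, 193 and 183 CPM with Bupleuri (1.07 ± 0.036). MCOLN1, the calcium channel TRPML1, rose with Bupleuri, from 21.9, 23.0 and 23.0 to 42.5, 41.5 and 38.2 CPM (0.85 ± 0.059, edgeR adjusted p = 2.73e-16). With Coptidis it rose by 0.22 ± 0.079 (edgeR adjusted p = 0.0141), a call lost without replicate 2 of the high dose (0.15, edgeR adjusted p = 0.213) or replicate 3 of the low dose (0.20, 0.0794).

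Among the 12 hydrolases and activators, the aspartic protease CTSD went from 324 and 320 to 658 and 667 CPM with Coptidis (1.05 ± 0.056) and from 357, 334 and 376 to 578, 583 and 563 CPM with Bupleuri (0.70 ± 0.045). The sialidase NEU1 rose by 0.73 ± 0.043 and 0.83 ± 0.035, and PSAP, the precursor of the saposins that help lipid hydrolases, by 0.84 ± 0.044 and 0.41 ± 0.036. GLA, the alpha-galactosidase lacking in Fabry disease, went against them with Coptidis. Its level was 55.3 and 57.5 CPM at the low dose, 50.4 and 50.5 at the medium dose and 34.5 and 32.7 at the high dose (-0.74 ± 0.063, edgeR adjusted p = 3.27e-14). With Bupleuri GLA stood at 59.0, 56.7 and 66.7 and at 64.9, 65.1 and 63.7 CPM, which overlap (0.09 ± 0.046, edgeR adjusted p = 0.137).

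The autophagy genes rose most with Coptidis. WIPI1, a phosphoinositide-binding protein of the growing autophagosome (chromosome 17, 68420948 to 68457513, minus strand), stood at 25.1 and 26.0 CPM at the low dose, 33.4 and 36.9 at the medium and 88.7 and 98.0 at the high dose. The 3 doses did not overlap, and the rise from low to high was 3.66-fold (1.87 ± 0.064, edgeR adjusted p = 1.21e-27). MAP1LC3B, which encodes the LC3B protein that coats autophagosomes, went from 88.7 and 84.0 to 247 and 239 CPM (1.5 ± 0.045). Its relative GABARAPL1 went from 18.9 and 22.6 to 54.6 and 56.1 CPM (1.42 ± 0.074).

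With Bupleuri these 3 genes changed by less than with Coptidis. WIPI1 rose by 0.45 ± 0.056 and MAP1LC3B by 0.47 ± 0.037, and GABARAPL1 was at 21.3, 21.5 and 21.6 CPM at the low and 19.7, 19.5 and 20.0 CPM at the high dose, a log2 difference of -0.12 ± 0.065 that did not pass (edgeR adjusted p = 0.148). SQSTM1, the cargo receptor p62 (chromosome 5, 179806398 to 179838078, plus strand), was the exception and rose more with Bupleuri. It stood at 539, 538 and 581 CPM at the low dose, 688, 695 and 677 at the medium and 1947, 2001 and 1959 at the high dose (1.84 ± 0.035, edgeR adjusted p = 1.31e-36). With Coptidis it went from 542 and 534 over 834 and 853 to 1404 and 1460 CPM (1.42 ± 0.042). WIPI1 was called higher in each of the 7 dose comparisons, by 0.23 to 1.87. In the Zizyphi comparison that call was lost without any 1 of the 4 libraries (edgeR adjusted p = 0.119 to 0.172), and in Aconiti without replicate 3 of the high (0.128) or of the low dose (0.0768).

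**Figure D2:**
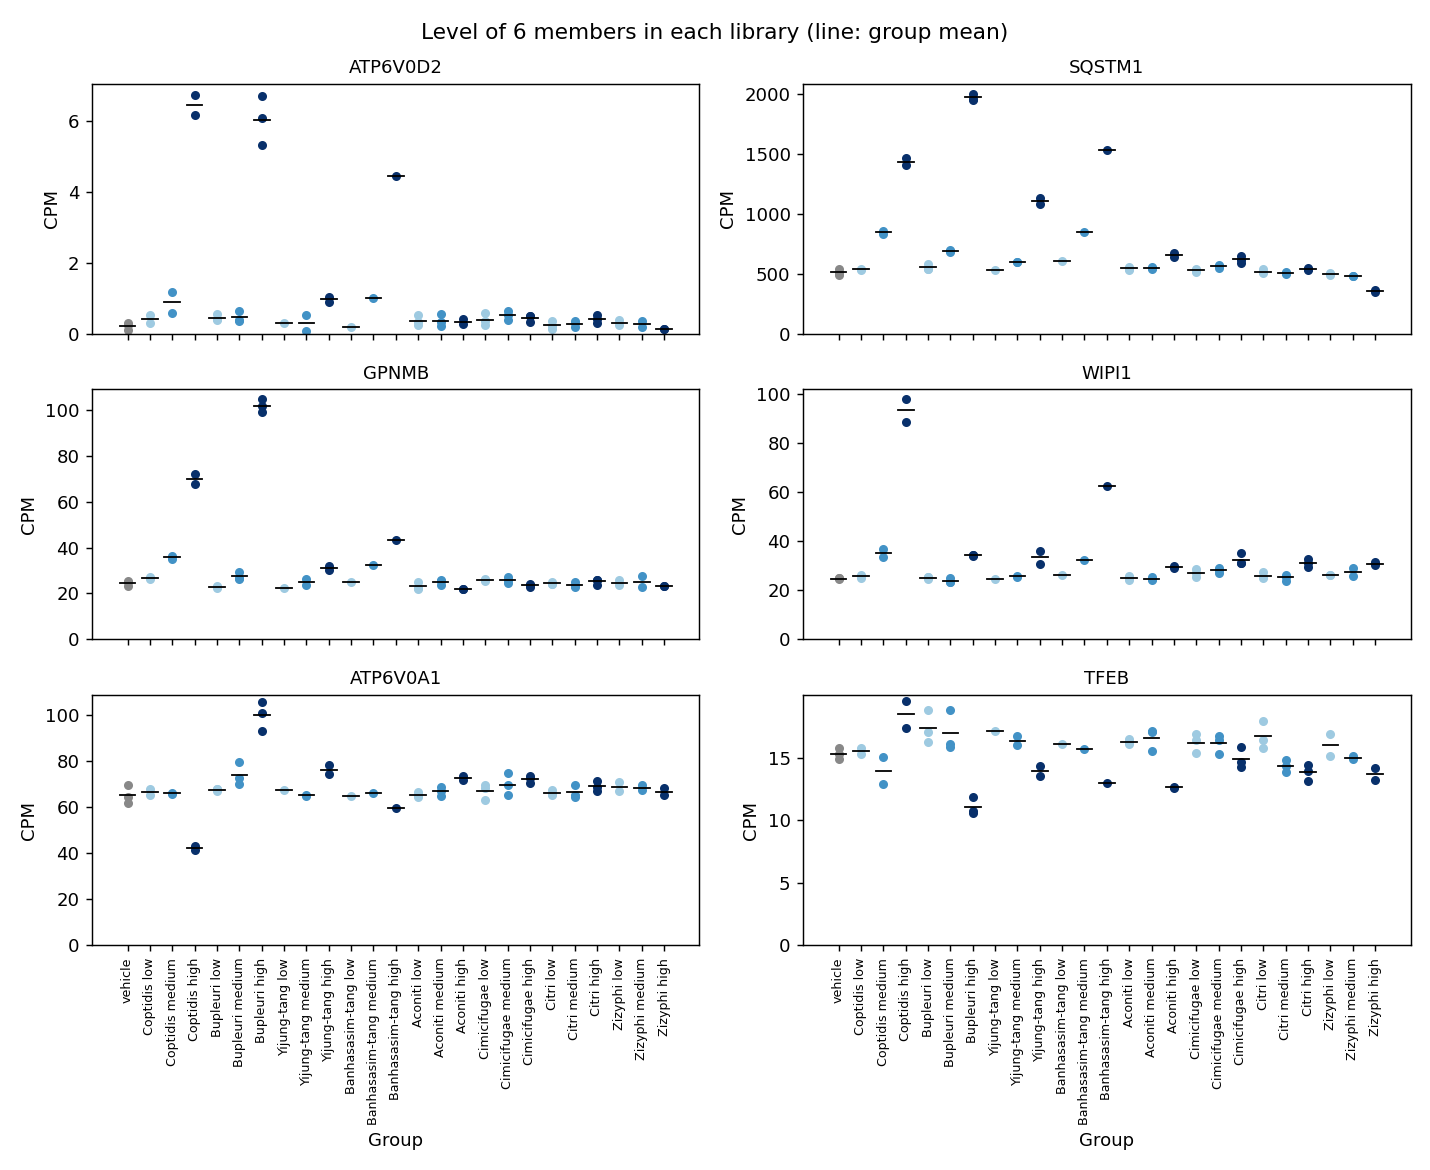
CPM of 6 members (1 panel each) in each library used, by group on the horizontal axis from vehicle to high dose, with the group mean as a line. ATP6V0D2, SQSTM1, GPNMB and WIPI1 are highest in high-dose Coptidis or Bupleuri, while ATP6V0A1 is lowest in high-dose Coptidis and highest in high-dose Bupleuri.

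The V-ATPase uses alternative subunits, and 1 paralog of most pairs dominated in the vehicle. On a scale per length (TPM over the exons of each gene, mean ± SD, n = 3), ATP6V1G1 was at 166 ± 5.54, the neuronal form ATP6V1G2 at 0.64 ± 0.131 and ATP6V1G3 at 2.62 ± 0.278. ATP6V1B2 was at 47 ± 1.15 TPM and the kidney form ATP6V1B1 at 2.01 ± 0.0299, ATP6V1C1 at 72.3 ± 1.16 and ATP6V1C2 at 3.09 ± 0.0761, and ATP6V1E1 at 125 ± 7.61 and ATP6V1E2 at 3.56 ± 0.309. In V0, ATP6V0D1 was at 39.6 ± 1.14 TPM and ATP6V0D2, the form known from osteoclasts and macrophages, at 0.285 ± 0.126. ATP6V0A1 was at 23.1 ± 1.47 TPM, ATP6V0A2 at 9.47 ± 0.169 and ATP6V0A4 at 0.105 ± 0.0133, and ATP6V0E1 was at 308 ± 10.3 and ATP6V0E2 at 32.7 ± 1.25. In the vehicle, ATP6V1G2 rests on 6, 6 and 7 counts, ATP6V1G3 on 9, 11 and 7 and ATP6V0A4 on 2, 2 and 2. TPM depends on the length used. With the longest transcript as length, ATP6V0A1 was at 40.5, ATP6V0D1 at 71.4 and ATP6V1E1 at 214, and the leading paralogs among the members stayed the same. TCIRG1, a further paralog of ATP6V0A1, is no member by its symbol, and its TPM is not given here.

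With Bupleuri most abundant subunits of both sectors rose. Of the 13 V1 subunits 8 were called higher and 2 lower (median 0.48), and of the 9 V0 subunits 7 were higher and none lower (median 0.36). These counts stand beside 20.6% of all genes tested called higher and 18.6% lower. ATP6V1B2, part of the ATP-splitting head, went from 86.7, 85.6 and 86.7 to 184.6, 185.5 and 184.8 CPM (1.10 ± 0.041, edgeR adjusted p = 2e-25). ATP6V1C1, which links the sectors, went from 96.8, 93.6 and 90.7 to 192, 192 and 194 CPM (1.04 ± 0.032). The catalytic ATP6V1A rose by 0.49 ± 0.047. The 2 that were lower, ATP6V1G2 and ATP6V1G3, rest on few counts, 9, 13 and 13 at the low against 5, 7 and 3 at the high dose and 6, 10 and 9 against 3, 0 and 2, and the ATP6V1G2 call was lost without replicate 2 of the low (edgeR adjusted p = 0.0618) or replicate 3 of the high dose (0.0893).

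With Coptidis the V1 subunits also rose for the most part (8 higher, 3 lower, median 0.48), led by ATP6V1G1, from 57.0 and 58.6 to 116 and 117 CPM (1.02 ± 0.069), and ATP6V1H (1.01 ± 0.064). The V0 subunits were split, with 4 higher and 5 lower (median -0.17). Of all genes tested, 33.2% were called higher and 32.4% lower with Coptidis, so calls in both directions are not particular to V0. ATP6V0A1, a subunit of the proton path (chromosome 17, 42458844 to 42522611, plus strand), stood at 67.7 and 65.1 CPM at the low dose, 65.7 and 65.9 at the medium and 43.2 and 41.2 at the high dose (-0.65 ± 0.062, edgeR adjusted p = 1.61e-12). Its paralog ATP6V0A2, known from the Golgi and endosomes, went the other way, from 29.5 and 34.1 to 57.2 and 57.2 CPM (0.85 ± 0.066, edgeR adjusted p = 2.22e-15). With Bupleuri both paralogs rose, ATP6V0A1 from 67.0, 67.9 and 67.6 to 105, 101 and 93.1 CPM (0.57 ± 0.046) and ATP6V0A2 by 0.27 ± 0.054.

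Of the 5 lower V0 subunits, only ATP6V0A1 kept its call in each of the 4 fits that left out 1 library. ATP6V0E2 lost it without replicate 2 of the high (edgeR adjusted p = 0.071) or of the low dose (0.15). ATP6V0D1 and ATP6V0E1, abundant V0 subunits, were slightly lower with high-dose Coptidis (-0.19 ± 0.054 and -0.17 ± 0.058). Those calls were lost without replicate 2 of the high dose (ATP6V0D1, edgeR adjusted p = 0.0503) and without replicate 2 of the low dose (ATP6V0E1, 0.0708). That of the catalytic ATP6V1A (-0.15 ± 0.061) was lost without replicate 2 (0.109) or 3 (0.0572) of the high dose or replicate 3 of the low dose (0.123). ATP6V1G2 rests on 14 and 14 counts at the low and 2 and 4 at the high dose (-1.81 ± 0.49), and lost its call without replicate 2 of the high dose (0.0742). ATP6V0A4 (-2.33 ± 0.99) rests on 7 and 7 against 2 and 0 counts and lost its call without either low-dose library or replicate 3 of the high dose (edgeR adjusted p = 0.079 to 0.256).

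ATP6V0D2 had the largest fold change of the tested members in both extracts, from a level near the limit of detection. It had 9, 13 and 12 counts in low-dose and 153, 147 and 146 in high-dose Bupleuri, which is 0.377, 0.561 and 0.426 against 6.71, 5.33 and 6.09 CPM (13.2-fold, log2 3.72 ± 0.28, edgeR adjusted p = 3.22e-15). With Coptidis it had 13 and 7 counts at the low, 27 and 13 at the medium and 121 and 122 at the high dose, or 0.530 and 0.288 against 6.18 and 6.72 CPM (15.6-fold, 3.96 ± 0.35, edgeR adjusted p = 1.51e-13). The vehicle libraries held 2, 5 and 5 counts. Sums of cell type markers were also taken, and in the vehicle each rested mostly on 1 gene. These were PTPRC (13.4 CPM) for leukocytes, TYRP1 (4.72) for melanocytes, KDR (26.6) for endothelial and KRT18 (240) for epithelial cells. Over 10 leukocyte markers the sum was 16.3 to 17.9 CPM in low-dose and 6.14 to 6.38 CPM in high-dose Bupleuri. With Coptidis it was 16.0 to 16.7 CPM at the low and 6.23 to 6.28 CPM at the high dose. TYROBP, C1QA and C1QB were at 0 in all 58 libraries. The sum of 6 melanocyte markers was also lower at the high dose, 2.55 to 4.24 CPM against 5.50 to 6.00 with Bupleuri and 2.20 to 2.76 against 5.52 to 5.99 with Coptidis, with TYR at 0 in all 58. Over 6 endothelial markers the sum was higher at the high dose, 37.0 to 39.6 against 23.7 to 29.1 CPM with Bupleuri and 35.8 to 37.8 against 29.74 to 31 CPM with Coptidis. Over 6 epithelial markers it was lower, 63.4 to 67.3 against 233 to 257 CPM with Bupleuri and 169 to 172 against 209 to 221 CPM with Coptidis. The part of these markers in the results was not tested. In bulk samples a changed number of cells of a type and a changed level per cell cannot be told apart.

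**Figure D3:**
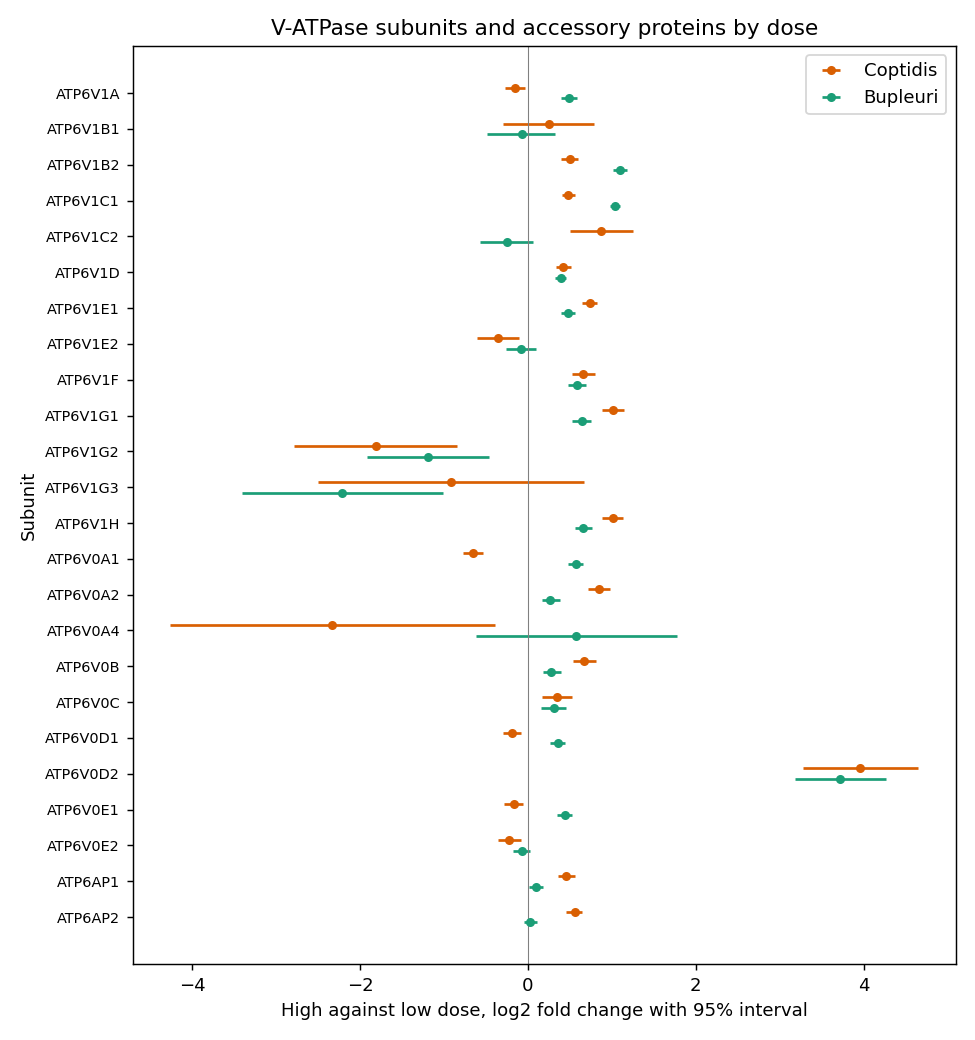
Log2 fold change between high and low dose, with its 95% interval, of the 22 V-ATPase subunits and 2 accessory proteins in Coptidis (orange) and Bupleuri (green). ATP6V0A1, ATP6V0D1, ATP6V0E1 and ATP6V1A lie on opposite sides of 0 in the 2 extracts, and ATP6V0D2 lies near 4 in both.

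The accessory subunits ATP6AP1 and ATP6AP2, which help to assemble the pump, rose with Coptidis (0.46 ± 0.051 and 0.56 ± 0.049), while with Bupleuri the differences of 0.10 ± 0.041 and 0.03 ± 0.040 did not pass (edgeR adjusted p = 0.0552 and 0.619). Of the other loci, ATP6V1FNB, the neighbour of ATP6V1F, went from 2.49 and 1.85 to 4.34 and 4.85 CPM with Coptidis (1.08 ± 0.20) and from 1.93, 1.94 and 2.34 to 4.47, 5.65 and 5.01 CPM with Bupleuri (1.28 ± 0.16), and ATP6AP1L rose with Coptidis, from 1.51 and 1.61 to 4.39 and 4.79 CPM (1.56 ± 0.20). The readthrough ATP6V1G2-DDX39B passed in none of the 7 dose comparisons. Values of this locus, of ATP6V1FNB and of the antisense and divergent transcripts are uncertain, since reads can be shared with the overlapping gene. The kit marked strand, but no source used here says whether the counting used it.

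Among the tested members, Coptidis and Bupleuri shared most of their rises and differed in their size and in a few directions. Of the 57 tested members, 31 were called higher in both and 2 lower in both. A further 6 were higher and 7 lower with Coptidis alone by call, 1 was lower with Bupleuri alone, 3 were called in neither and 7 were called in opposite directions. Across the 57 members, which are not independent, the 2 dose effects had a Pearson r of 0.66 and a Spearman rho of 0.53. This overlap and these correlations were not computed over all genes, of which 65.6% were called with Coptidis and 39.2% with Bupleuri. They describe the members and do not set them apart from other genes. The difference of the effects, each taken within its own set, was tested in the same fit, a comparison added after the data were seen. It was called for 35 members (55.4% of all genes tested were called), 21 of them higher in Coptidis, beside 27.4% of all genes, and the other 14 lower.

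All 7 members with opposite calls were among them. ATP6V0A1 (difference -1.22 ± 0.078), ATP6V1A (-0.64 ± 0.077), ATP6V0E1 (-0.61 ± 0.074) and ATP6V0D1 (-0.55 ± 0.069) rose with Bupleuri and fell with Coptidis. TFEB (0.91 ± 0.11), TFE3 (0.42 ± 0.063) and the protease CTSZ (0.30 ± 0.070) were called the opposite way. The edgeR adjusted p of these differences was at most 0.000311. With the 2 divergent libraries kept, TFEB and ATP6V0A1 kept their called difference, and the edgeR adjusted p was 0.083 for TFE3, 0.18 for CTSZ, 0.0571 for ATP6V0E1, 0.122 for ATP6V1A and 0.0796 for ATP6V0D1. The separate calls of CTSZ were lost with Coptidis without replicate 3 of the high dose (edgeR adjusted p = 0.114), without replicate 3 of the low dose (0.223) or without the filter on low counts (0.0826), and with Bupleuri without replicate 3 of the low dose (0.0805). Among the called differences, the 5 largest positive ones were in the autophagy genes GABARAPL1 (1.54 ± 0.098), WIPI1 (1.42 ± 0.085) and MAP1LC3B (1.02 ± 0.058), with ATP6AP1L (1.53 ± 0.27) and ATP6V1C2 (1.13 ± 0.25). GLA (-0.83 ± 0.078), GPNMB (-0.77 ± 0.083), MCOLN1 (-0.63 ± 0.099) and SQSTM1 (-0.42 ± 0.053) had a lower dose effect in Coptidis. No comparison of the 2 extracts at a matched dose was possible.

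**Figure D4:**
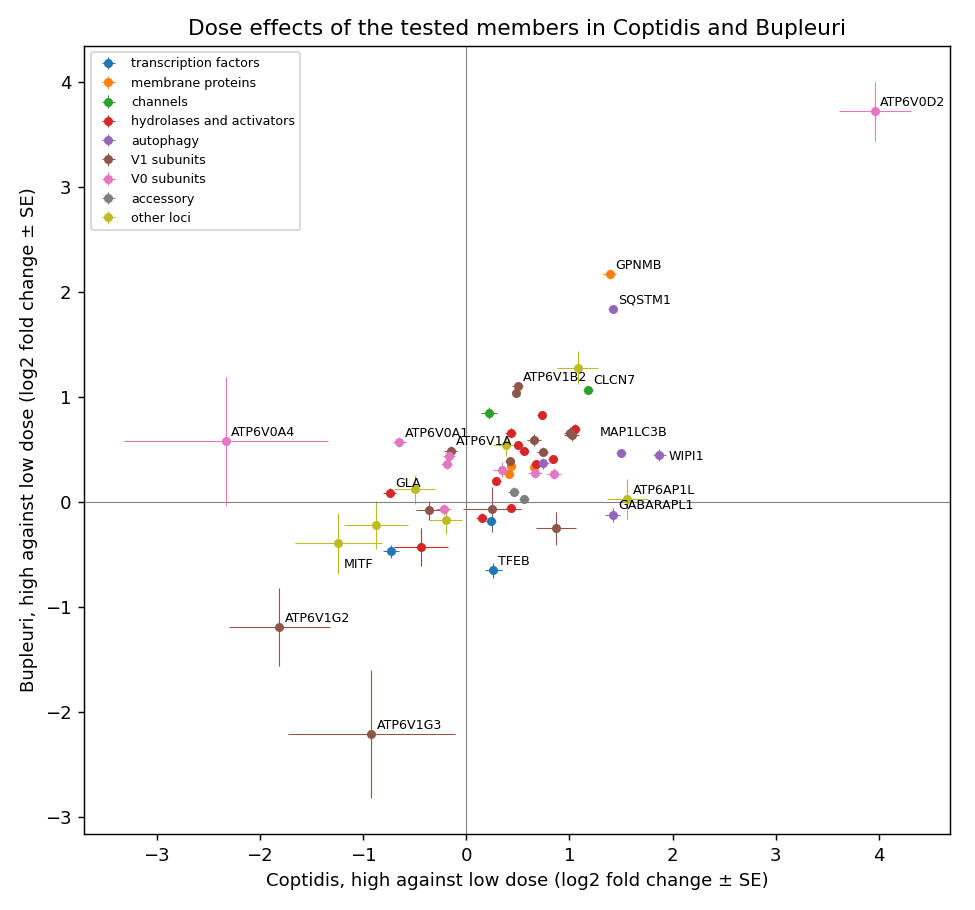
Log2 fold change between high and low dose of the 57 tested members in Coptidis (horizontal) and Bupleuri (vertical), with SE bars and colours by role. Most points lie at the upper right, ATP6V0D2 is far out at 3.96 and 3.72, and TFEB and ATP6V0A1 lie on opposite sides of the diagonal.

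Within-set partners of these 2 extracts served as a second comparison. The dose effect of Coptidis exceeded that of Zizyphi in 39 members and lay below it in 8 (28.1% and 27.2% of all genes tested), and that of Bupleuri exceeded that of Aconiti in 31 and lay below it in 5 (13.0% and 10.5%). For Citri minus Cimicifugae no member was called with edgeR (0.322% and 0.752% of all genes), and DESeq2 called 1.

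With the formula Yijung-tang, 8 of the 15 calls were lost in at least 1 fit that left out a library, and SQSTM1, WIPI1, CTSD, NEU1 and MCOLN1 were not among them. SQSTM1 stood at 593 and 601 CPM at the medium dose and 1083 and 1134 at the high dose (0.89 ± 0.042, edgeR adjusted p = 1.11e-20), without overlap. CTSD went from 347 and 347 to 446 and 429 CPM (0.33 ± 0.055) and NEU1 from 135 and 134 to 169 and 168 CPM (0.32 ± 0.043). MCOLN1 went from 22.2 and 22.9 to 28.6 and 27.8 CPM (0.32 ± 0.074) and WIPI1 from 25.5 and 25.7 to 36.0 and 30.8 CPM (0.37 ± 0.068). All 4 were higher in both high-dose libraries. ATP6V0D2 was called higher (1.56 ± 0.44, edgeR adjusted p = 0.0165) on 15 and 2 counts at the medium and 24 and 25 at the high dose, and lost the call without replicate 1 of the high (0.114) or replicate 2 of the medium dose (0.89, 0.32).

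With Aconiti SQSTM1 rose from 541, 557 and 531 to 672 and 642 CPM (0.28 ± 0.038) and the protease CTSL from 140, 138 and 143 to 167 and 173 CPM (0.28 ± 0.050). CTSK, a collagen-degrading protease, went from 1.37, 1.19 and 1.76 to 2.13 and 2.37 CPM (0.61 ± 0.19), and ATP6AP1L from 1.31, 1.24 and 1.70 to 2.13 and 2.33 CPM (0.63 ± 0.19). The calls of CTSK and ATP6AP1L were lost in 4 of the 5 fits that left out 1 library (edgeR adjusted p = 0.0691 to 0.298), so they rest on the full set of 5 libraries.

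With Zizyphi most called members were lower. SQSTM1 stood at 506 and 490 CPM at its low dose, 481 and 479 at the medium and 367 and 349 at the high dose (-0.47 ± 0.042, edgeR adjusted p = 8.44e-11). ATP6V1C1 went from 101.2 and 101.0 to 83.9 and 88.2 CPM (-0.23 ± 0.040) and the antisense transcript ATP6V0E2-AS1 from 6.38 and 6.84 to 3.58 and 4.03 CPM (-0.79 ± 0.14). CTSD went from 322 and 324 to 291 and 248 CPM (-0.26 ± 0.056) and MCOLN1 from 21.7 and 20.3 to 18.9 and 16.3 CPM (-0.26 ± 0.081), but without replicate 3 of the high dose their edgeR adjusted p was 0.25 and 0.495. The MCOLN1 call was also lost without replicate 2 (0.294) or 3 (0.0742) of the low dose, without the filter (0.0635), with the compared sets alone (0.128) and with DESeq2 (0.057). With Citri ATP6V0E2-AS1 fell from 6.28, 7.31 and 7.04 to 5.53, 4.43 and 4.57 CPM (-0.51 ± 0.11) beside the fall of TFEB, and WIPI1 rose from 25.0, 25.5 and 27.4 to 29.5, 32.7 and 31.3 CPM (0.26 ± 0.056). With Cimicifugae WIPI1 rose from 25.4, 26.9 and 28.6 to 31.04, 30.95 and 35.33 CPM (0.27 ± 0.057) and SQSTM1 from 510, 533 and 540 to 617, 593 and 650 CPM (0.23 ± 0.034). CTSL rose as well (0.17 ± 0.046), with an edgeR adjusted p of 0.116 without replicate 3 of the low dose.

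Medium doses moved few members. With Coptidis, 14 were higher and none lower than at the low dose (7.68% and 5.89% of all genes), led by SQSTM1 (0.65 ± 0.042), WIPI1 (0.46 ± 0.069), GPNMB (0.42 ± 0.067) and MAP1LC3B (0.41 ± 0.046). That count fell to between 6 and 10 when 1 library was left out, the lowest without replicate 2 of the low dose. With Bupleuri, SQSTM1 (0.31 ± 0.034) and GPNMB (0.27 ± 0.057) were higher, the only 2 members called (0.277% of all genes higher, 0.0905% lower). Zizyphi, Citri, Cimicifugae and Aconiti gave no call at the medium dose with edgeR, where 0.00566%, 0.00566%, 0.385% and 0.0509% of all genes were called (0.0113% lower for Aconiti).

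Against the vehicle, the high doses gave 40 members higher and 8 lower with Coptidis (34.0% and 32.6% of all genes, 66.6% in all), 39 and 5 with Bupleuri (20.2% and 19.4%), 20 and 3 with Yijung-tang (14.1% and 16.7%), 18 and 7 with Aconiti (12.7% and 15.0%), 18 and 8 with Cimicifugae (16.5% and 19.2%, 35.7% in all), 8 and 9 with Citri (14.3% and 17.1%) and 3 and 17 with Zizyphi (9.64% and 12.0%). These comparisons share the 3 vehicle libraries. Low doses already differed from the vehicle, with 16 members higher and 6 lower for Bupleuri (12.0% and 14.9% of all genes), 9 and 4 for Cimicifugae (8.78% and 12.0%), 7 and 5 for Aconiti (8.45% and 11.6%), 6 and 4 for Citri (6.82% and 9.26%), 3 and 5 for Zizyphi (4.82% and 7.0%) and 1 and 3 for Coptidis (3.39% and 3.94%). ATP6V1H was lower in 5 of the 6 low-dose groups, by 0.21 to 0.27 on the log2 scale, and ATP6V1A by 0.14 to 0.22 in 5 of them. Set and treatment cannot be told apart in these values.

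Banhasasim-tang had 1 library per dose, so its values have no test. SQSTM1 stood at 606, 847 and 1527 CPM at the low, medium and high dose, where the vehicle libraries held 490 to 537. WIPI1 stood at 26.3, 32.4 and 62.6 CPM (vehicle 24.4 to 25.0), and ATP6V0D2 at 0.197, 1.00 and 4.44 CPM on 5, 28 and 123 counts. MITF was at 34.1, 29.5 and 20.2 CPM. With log2 CPM at a prior count of 2, 9 of the 57 tested members were over 1.5-fold higher and 5 over 1.5-fold lower at the high than at the low dose, beside 10.8% and 13.2% of all genes. The highest differences were in ATP6V0D2 (4.02), ATP6V1FNB (2.31), ATP6AP1L (1.57), SQSTM1 (1.33) and WIPI1 (1.25), and MAP1LC3B (1.03) was near them.

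Other genes of the compartment, in lists chosen with earlier results of these data known, were counted in the same fits. Their counts stand beside 33.2% of all genes tested called higher and 32.4% lower with Coptidis, and 20.6% and 18.6% with Bupleuri, and no list was tested against other genes. Of 37 further hydrolases and cofactors, 21 were higher and 8 lower with Coptidis and 20 and 5 with Bupleuri. With Coptidis the heparan sulfate acetyltransferase HGSNAT (-1.32 ± 0.059) and the fucosidase FUCA1 (-0.91 ± 0.092) fell, and the protease CTSH rose by 1.43 ± 0.061. TPP1 (0.89 ± 0.038) and ASAH1 (0.83 ± 0.040) rose with Bupleuri. Of 27 membrane and trafficking genes, 19 were higher and 4 lower with Coptidis and 22 and 2 with Bupleuri, led in both by the cholesterol exporter NPC1 (1.67 ± 0.047 and 1.42 ± 0.038). The adaptor PLEKHM1 (1.33 ± 0.052) and the cystine exporter CTNS (1.29 ± 0.075) rose with Bupleuri.

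Of the 37 tested core autophagy genes and receptors, beside the same shares of all genes, 22 were higher with Coptidis and 6 lower (median 0.43), with the kinase ULK1 among them at 1.09 ± 0.060 and the conjugation enzyme ATG7 at -0.56 ± 0.070. With Bupleuri 12 were higher and 4 lower (median -0.01), with the receptor OPTN at 0.46 ± 0.044. Of 18 genes of mTORC1 and TFEB control at the lysosome, 12 were higher and 2 lower with Coptidis and 15 and 0 with Bupleuri, among them the Rag GTPases RRAGD (4.77 ± 0.25 and 3.68 ± 0.21) and RRAGC (1.45 ± 0.062 and 1.32 ± 0.051) and, with Bupleuri, the coactivator PPARGC1A (1.59 ± 0.13). Of 10 assembly factors and regulators of the V-ATPase, 2 were higher and 5 lower with Coptidis, a share called near the 65.6% of all genes, and 4 and 3 with Bupleuri (39.2% of all genes). TCIRG1, the remaining a subunit, was lower in both (-0.19 ± 0.075 and -0.39 ± 0.057).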

How the data were processed

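RNA was sequenced as 100 bp paired ends from 60 libraries. The authors deposited expected counts per gene. The submitters' processing notes name RSEM 1.3.3, STAR 2.7.3a, FastQC 0.11.9, Trim Galore 0.6.5 and the build hg38, and no source used here states the annotation or the strand setting. Of the values, 9.18% were not whole, and all were rounded. The members and lists were chosen with earlier results of these data known. Symbols and positions came from GENCODE v29 (57055 genes matched). Libraries were grouped by label, and 2 that stood apart (11329310 and 15421648 counts) were left out. The 54 libraries of the 21 groups with at least 2 entered 1 fit: filterByExpr at a minimum count of 10, TMM and glmQLFit with glmQLFTest in edgeR 4.0.16 (R 4.3.3), no replicate block, Benjamini-Hochberg adjustment over 17680 genes. The standard error is the log2 fold change over the square root of F. Replicates differed by more than sampling noise. Values per sample are given for the 3 transcription factors and for members with the largest called changes per extract, up to 6 each, and some members were added after their values were seen. Alternatives were RLE scaling, DESeq2 1.42.0, no filter, the compared sets alone, the divergent libraries kept, a replicate block and each library left out. The test was also run on simulated data in which few genes changed in 1 group. That run does not check it where most genes are called, as with Coptidis.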

Additional observations from a re-analysis of the deposited data

Results flagged for a closer look

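By a test of the difference in edgeR, the dose effect differed between Coptidis and Zizyphi for 47 members (82.5% of those tested, beside 55.3% of all genes). Between Bupleuri and Aconiti it differed for 36 (63.2%, beside 23.4%). Between Coptidis and Bupleuri it differed for 35 (61.4%, near the 55.4% of all genes). Among the last, 7 members were called in opposite directions, with log2 differences of 0.91 (TFEB), 0.42 (TFE3), 0.30 (CTSZ), -0.64 (ATP6V1A), -1.22 (ATP6V0A1), -0.55 (ATP6V0D1) and -0.61 (ATP6V0E1).

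The single library of high-dose Banhasasim-tang, which enters no test, held over 2 times the level of the highest vehicle library in 5 members of at least 1 CPM: SQSTM1 at 1527 CPM, WIPI1 at 62.6, ATP6V0D2 at 4.44, ATP6AP1L at 4.36 and ATP6V1FNB at 8.15.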

How the results depend on the processing

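Counts of called members stayed within 1.5 times the main value under RLE scaling in all 30 comparisons and under the replicate block in all 30. The replicate block gave 53 for Coptidis, 42 for Bupleuri, 16 for Yijung-tang, 15 for Aconiti, 8 for Zizyphi, 5 for Citri and 5 for Cimicifugae, high against low or medium, and 8 for Zizyphi with its numbers crossed, a check added after the data were seen. Single members were followed where the main fit called them, and the 3 transcription factors in each case. Of these 184 results the block changed 1, a call that was lost. Other members called only under the block were not followed. Same-numbered libraries of an extract correlated at -0.13 to 0.16 in their deviations from the group means, so the numbers were not taken as pairs. With the 2 divergent libraries kept, counts high against low or medium were 1 for Zizyphi, 2 for Citri, 0 for Cimicifugae and 2 for Yijung-tang, and medium against low 3 for Coptidis and 0 for Bupleuri. Against the vehicle they were 3 for Zizyphi, 2 for Citri, 4 for Cimicifugae and 7 for Yijung-tang at the high dose and 0 at the low dose of each of the 6 herbs. The dose effects differed for 31 members between Coptidis and Zizyphi, 16 between Bupleuri and Aconiti and 16 between Coptidis and Bupleuri. Of 182 results of single members followed in the same way, 74 lost their call. Apart from these 74, MAP1LC3B (-0.18, edgeR adjusted p = 0.401) and ATP6V0E2 (0.19, 0.379) changed sign in Aconiti and were no longer called. Shares of all genes called with the divergent libraries kept are not given here, so these counts describe the members alone. The cause of the losses and changes of sign was not tested. Without the filter on low counts, medium against low gave 7 for Coptidis and 1 for Citri. With the compared sets alone, Zizyphi high against low gave 4 and Bupleuri medium against low 1. DESeq2 called 1 member for Citri minus Cimicifugae.

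With 1 library left out at a time, where an arm of 1 library is assumed to vary like the other groups, counts high against low ran from 44 to 48 for Coptidis, 40 to 43 for Bupleuri, 3 (without Zizyphi high replicate 3) to 10 (without high replicate 2) for Zizyphi and 4 (without Aconiti high replicate 3) to 12 for Aconiti, and from 8 (without Yijung-tang medium replicate 1) to 11 for Yijung-tang high against medium. Medium against low they ran from 6 (without Coptidis low replicate 2) to 10 for Coptidis and 1 (without Bupleuri medium replicate 1) to 2 for Bupleuri. High against vehicle they ran from 11 (without vehicle replicate 1) to 16 for Citri and 12 (without Aconiti high replicate 2) to 23 for Aconiti. Low against vehicle they ran from 0 (without Coptidis low replicate 2) to 4 for Coptidis, 2 to 6 for Zizyphi and 7 to 11 for Aconiti (both lowest without vehicle replicate 1), 2 (without Cimicifugae low replicate 3) to 15 for Cimicifugae and 14 (without Bupleuri low replicate 3) to 22 for Bupleuri. Citri minus Cimicifugae ran from 0 to 1.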
